A study of Homo sapiens with 12 samples.

Results

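The tumour necrosis factor (TNF) superfamily comprises ligands and the receptors that bind them, and its members were taken from the count table by gene symbol. All symbols of the form TNFSF or TNFRSF followed by a number were kept (32 genes), together with 12 members that carry older names (TNF, LTA, LTB, LTBR, FAS, FASLG, CD27, CD40, CD70, NGFR, EDAR and RELT). This gave 44 of the 58721 genes in the table, which were divided into 16 ligands, 8 death receptors, 4 decoy receptors and 16 other receptors. RNA sequencing was performed on EW8 and TC71, which are established Ewing sarcoma cell lines, and each group comprised 3 libraries. In both lines, all groups carried a lentiviral Tet-On system in which the TRE3G promoter drives c-Jun and c-Fos from 1 transcript, joined by a viral self-cleaving peptide, with the Tet-On 3G transactivator expressed from the EF1 alpha promoter. Cells were selected with geneticin and puromycin, and no cloning was described. The groups were EW8 vehicle, EW8 doxycycline, TC71 vehicle and TC71 doxycycline, treated for 72 h with solvent (DMSO) or with doxycycline at 2000 ng/ml. The vehicle cells are labelled as wild type although they carry the construct, and cells given doxycycline without the transgenes were not analysed here, so the drug and the induced proteins cannot be told apart. Reads of the transgenes and of the native JUN and FOS genes fall in the same counts. Nothing in the labels states that the libraries of a group came from separate cultures, so the p-values measure the spread between these libraries, which may be technical.

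Most TNF superfamily ligands are made as membrane-anchored proteins that act as trimers, and many can be released by proteases. Death receptors carry an intracellular death domain that recruits FADD or TRADD and can start a caspase cascade, whereas the receptors without that domain recruit TRAF adaptors and signal mainly to NF-kB and to JNK, a kinase that phosphorylates c-Jun. Decoy receptors bind ligand but lack a working death domain or are secreted. In tumours of mesenchymal origin the family is best known through TRAIL (TNFSF10), a ligand that can kill tumour cells by way of the death receptors TNFRSF10A and TNFRSF10B.

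Total counts per library ran from 42860665 to 60853649. Both induced genes rose in every doxycycline library: JUN went from a mean of 21.6 CPM (read counts scaled to a common library size) to 473 CPM in EW8 and from 20.7 to 755 CPM in TC71, and FOS from 36.7 to 1078 CPM and from 11.7 to 1579 CPM. TC71 vehicle replicate 1 stood apart from its group. The chi-square statistic per gene between libraries of a group was 5.40 to 11 for 10 of the 12 pairs, but 61.7 and 63.9 for the pairs that include this library. The Ewing sarcoma markers (10 genes, among them CD99, NKX2-2 and NR0B1) were expressed in all groups, with a summed level of 2623 to 3139 CPM. Of 12 leukocyte markers, 6 were at the floor in EW8 vehicle and 6 in EW8 doxycycline, CD68 only in the former and LYZ only in the latter. In EW8, PTPRC made up most of the summed 65.9 to 84.5 CPM. The T-cell gene CD3D and the B-cell gene MS4A1 were at 0 in all libraries. In TC71 the same list summed to 0.485 to 2.53 CPM. The floor is 6 counts in a library, which is 3 read pairs because both mates of a pair were counted, and it corresponds to 0.0966 to 0.145 CPM. Floors and counting intervals cover counting error only.

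Among the promoters that can be read for the family, those of 4 members that rose in both lines held the AP-1 motif, the sequence that dimers of c-Jun and c-Fos recognise. RefSeq promoter windows (GRCh38.p14, 250 bases before to 50 bases after each annotated start) were matched for 29 of the 44 members, 39 windows in all. A member was counted where any of its windows held a motif, whereas the shares over all promoters are of single windows, so they are not like for like. TGANTCA on either strand was found in the windows of 6 members, CD27, FAS, TNFRSF8, TNFRSF9, TNFSF14 and TNFSF15, while 7.71% of all 35116 promoter windows held it. Of the 5 members that rose in both lines and have a window, 4 held the motif (TNFRSF8, TNFRSF9, TNFSF14 and TNFSF15, but not TNFRSF19), against 2 of the other 24. Those 24 are not a group without rises. Some, such as CD27, were not tested and could not be called, and others, such as TNFRSF1B, rose in 1 line. CD70, TNFRSF10B and TNFRSF12A, which also rose in both lines, have no window. Whether the motif bears on any of these rises was not tested. The bases before the start are shown for TNFRSF9, TNFSF15 and TNFSF14, from position -250 to -1. A stretch from -15 to 15 is shown for TNFRSF8, whose match lies at 2 to 8. Capitals mark TGANTCA and, in TNFRSF9 and TNFSF14, the kappaB motif bound by NF-kB, whose overlapping matches merge into 1 run. The windows are chr1:7940840-7941089 (minus strand) for TNFRSF9, chr9:114792531-114792780 (minus strand) for TNFSF15, chr19:6670159-6670408 (minus strand) for TNFSF14 and chr1:12063288-12063317 (plus strand) for TNFRSF8.
TNFRSF9: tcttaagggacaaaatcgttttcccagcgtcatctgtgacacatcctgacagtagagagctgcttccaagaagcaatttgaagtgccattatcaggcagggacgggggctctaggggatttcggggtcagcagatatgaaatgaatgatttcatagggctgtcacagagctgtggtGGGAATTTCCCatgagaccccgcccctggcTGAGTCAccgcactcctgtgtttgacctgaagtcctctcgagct
TNFSF15: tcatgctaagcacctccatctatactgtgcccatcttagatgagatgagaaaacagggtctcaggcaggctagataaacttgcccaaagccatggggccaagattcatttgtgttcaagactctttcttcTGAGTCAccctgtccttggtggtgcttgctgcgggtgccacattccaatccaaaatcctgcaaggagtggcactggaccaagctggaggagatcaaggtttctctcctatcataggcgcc
TNFSF14: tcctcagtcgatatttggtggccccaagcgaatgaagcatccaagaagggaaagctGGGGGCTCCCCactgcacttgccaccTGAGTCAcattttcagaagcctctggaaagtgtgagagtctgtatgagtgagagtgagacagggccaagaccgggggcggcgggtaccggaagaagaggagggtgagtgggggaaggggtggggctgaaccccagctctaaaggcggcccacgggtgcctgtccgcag
TNFRSF8: ctagtgtgccttttccTGAGTCAtctctgc

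The AP-1 letters lay at -44 to -38 in TNFRSF9, at -120 to -114 in TNFSF15 and at -168 to -162 in TNFSF14. These positions are relative to the RefSeq start of the window. In the annotation used for counting, the genes reach further upstream, to chr1:7943165 for TNFRSF9, chr9:114806126 for TNFSF15 and chr19:6670588 for TNFSF14. The windows of these members therefore lie inside the counted genes and not before their outermost start. The kappaB motif, on either strand, was found in any window of 10 members, while 11.3% of all single windows held it. Of these 10 members, 3 (TNFRSF9, TNFRSF19 and TNFSF14) rose in both lines. The cAMP-response letters TGACGTCA were in the window of no member (1.85% of all windows). GGAAGGAA, a repeat of the kind that EWS-FLI1 binds, was in the windows of FAS and TNFSF11 (3.67% of all windows). A match is a description of these letters in a window chosen by annotation and does not show binding.

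With c-Jun and c-Fos induced, rises outnumbered falls among the members, as they did among all genes. In EW8, 11 members rose and 3 fell. These calls are from edgeR's quasi-likelihood test with Benjamini-Hochberg adjustment over all genes, and needed both an adjusted p below 0.05 and a log2 fold change beyond 1 in either direction. Over all 21013 genes tested, 11.4% rose and 3.38% fell. In TC71, 13 members rose and 3 fell, against 12.3% and 3.67% of all genes. A total of 31 members passed the filter on low counts and were tested, and a member that passed only through the group where it is high had to differ. The median log2 fold change of the tested members was 0.72 in EW8 and 0.95 in TC71, against -0.03 and 0.00 over all genes. With members at 0 counts in a group set to their bound, and a member at the floor in both groups left out, it was 0.55 and 0.95. CD70, TNFSF14, TNFSF15, TNFRSF8, TNFRSF9, TNFRSF10B, TNFRSF12A and TNFRSF19 rose in both lines (8 members), TNFSF13B and TNFRSF13C fell in both, and TNFRSF11A moved in opposite directions. Without TC71 vehicle replicate 1, the numbers of members that rose were also 11 in EW8 and 13 in TC71. The members called in TC71 were not the same, since TNFSF9 was no longer called and TNFRSF11B was. In bulk RNA, fewer cells expressing a gene and less of its RNA per cell cannot be told apart.

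**Figure D1:**
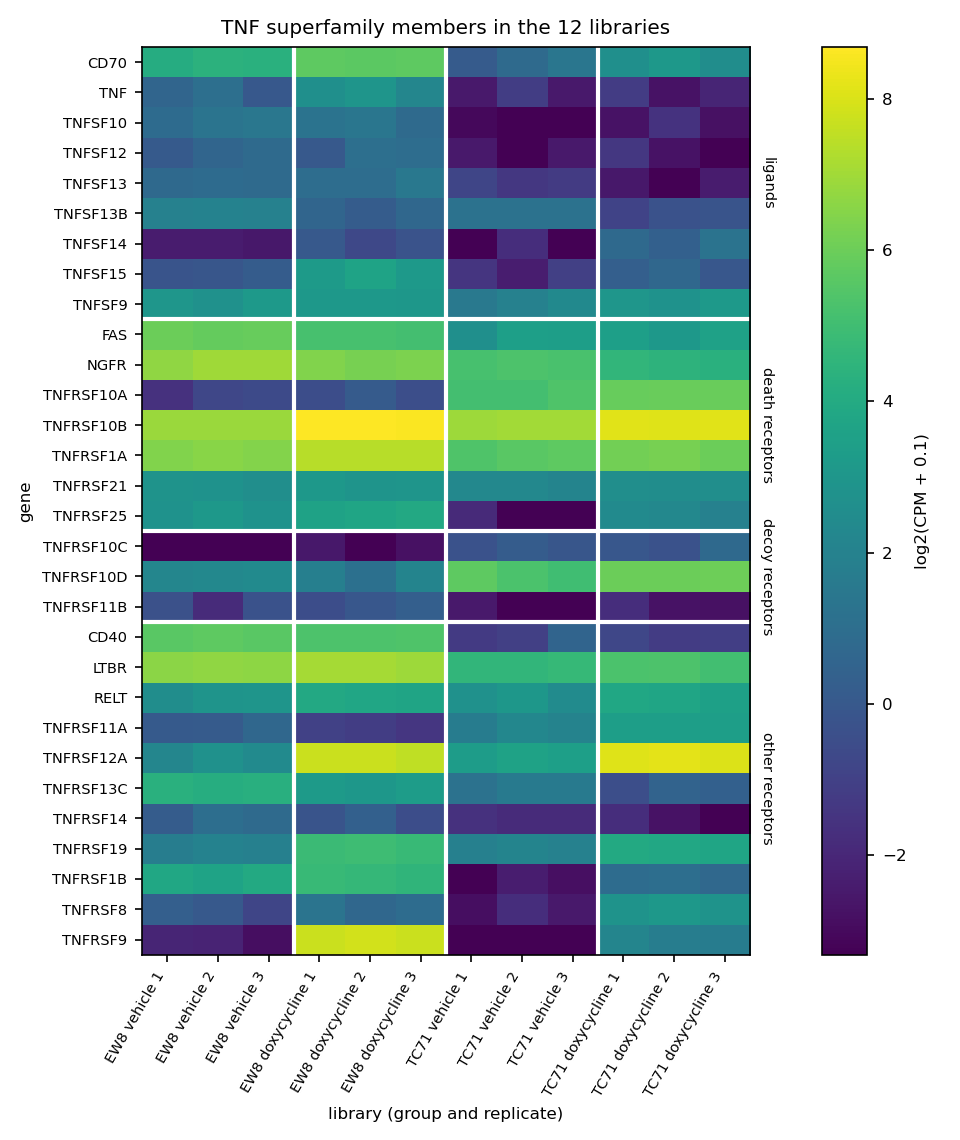
Heat map of the 30 members named with values, by class (rows) and library (columns), as log2 of CPM plus 0.1. TNFRSF12A is bright in all 6 doxycycline libraries, TNFRSF9 is bright in the EW8 doxycycline libraries, and TNFRSF10A and TNFRSF10D are brighter in TC71 than in EW8.

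By class, the ligands had 4 rises and 1 fall in EW8 and 5 rises and 2 falls in TC71, of 10 tested. Of the 7 tested death receptors, 1 rose in EW8 and 2 rose in TC71, and none fell in either line. Of the 3 tested decoy receptors, 1 rose in EW8, where both of its groups were at the floor, and none was called in TC71. The 11 other receptors tested had 5 rises and 2 falls in EW8 and 6 rises and 1 fall in TC71. With the limit on the fold change removed, the EW8 calls among the death receptors were 4 higher and 2 lower (all genes, 21.9% and 22%). The TC71 calls were 5 higher and 1 lower (all genes, 25.1% and 20.4%).

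**Figure D2:**
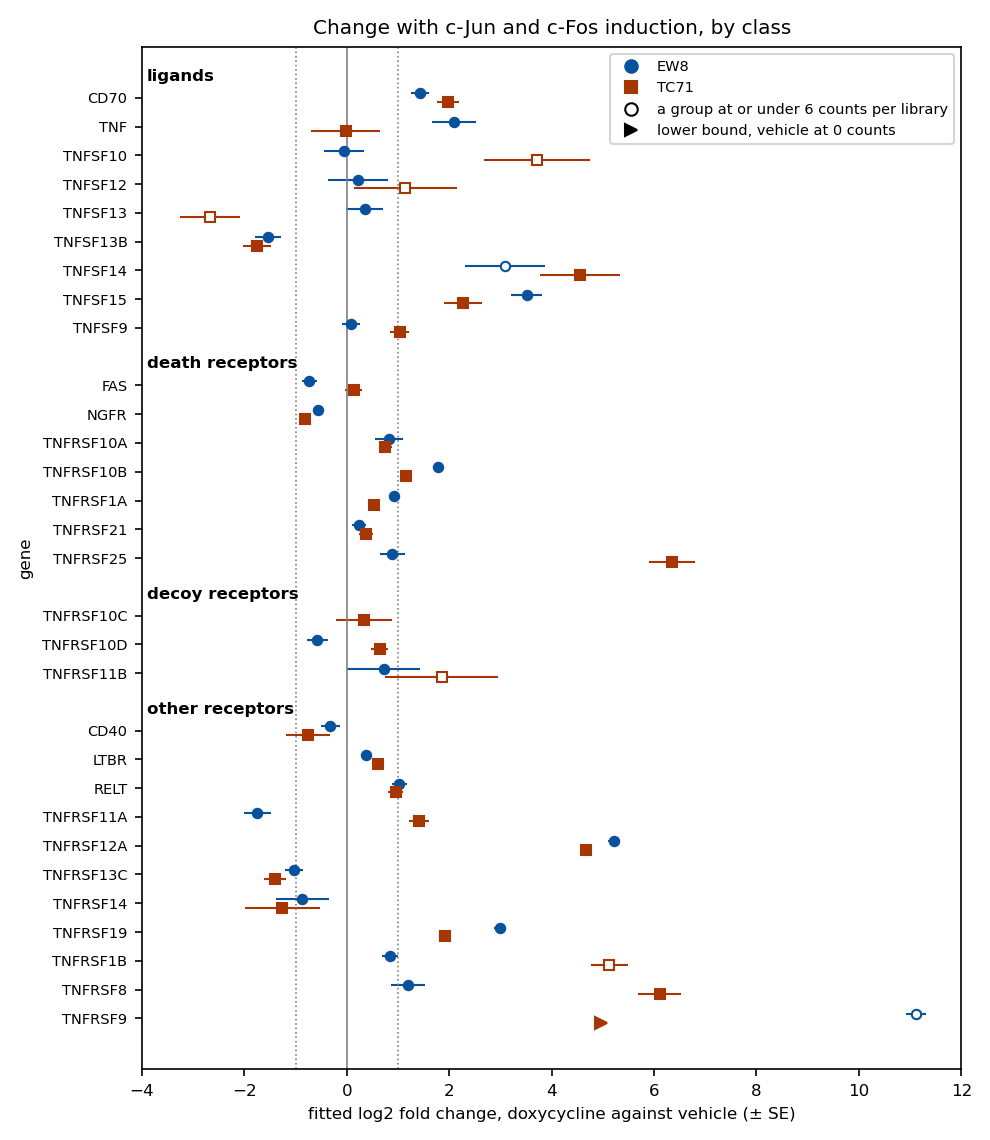
Fitted log2 fold change with doxycycline (x axis, bars are the standard error of the fit over 3 against 3 libraries) for the named members in EW8 (circles) and TC71 (squares), by class. Open symbols mark a comparison in which 1 group had at most 6 counts in each library, the triangle is the lower bound of TNFRSF9 in TC71, and dotted lines mark the limit of 1 used for calls. TNFRSF10C in EW8, at the floor in both groups, is not drawn.

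Among the ligands, CD70, which binds the lymphocyte receptor CD27, had the highest level per length in EW8, with a mean of 12.6 RPKM (CPM divided by the kilobases of exon) in vehicle and 34 RPKM with doxycycline. It was at 17.5, 20.7 and 19.9 CPM in the EW8 vehicle libraries and at 53.0, 51.4 and 51.7 CPM with doxycycline. In TC71 it was at 0.992, 1.66 and 2.54 CPM and then at 6.20, 8.29 and 5.91 CPM. The groups did not overlap in either line, and the log2 fold changes were 1.43 ± 0.17 (SE, n = 3 against 3, edgeR adjusted p = 1.78e-06) in EW8 and 1.98 ± 0.21 (edgeR adjusted p = 3.54e-07) in TC71. CD27 itself was not tested, with at most 7 counts in any library.

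TNFSF15, the ligand of the death receptor TNFRSF25, was at 0.766, 0.828 and 1.04 CPM in EW8 vehicle and 9.16, 12.3 and 8.90 CPM with doxycycline. In TC71 its values were 0.267, 0.0966 and 0.388 CPM and then 1.16, 1.53 and 0.864 CPM. It was therefore higher in every doxycycline library than in any vehicle library of the same line, 11.4-fold in EW8 (log2 fold change 3.51 ± 0.30 SE, edgeR adjusted p = 2.42e-08) and 4.81-fold in TC71 (2.27 ± 0.37, edgeR adjusted p = 5.17e-05). The difference between the responses did not pass the test (log2 difference -1.25 ± 0.49 SE, edgeR adjusted p = 0.0861). It was called with no filter on low counts and with DESeq2. TNFSF14, which binds LTBR and TNFRSF14, rose from a low level. It had 4 counts in each EW8 vehicle library and 51, 26 and 32 counts with doxycycline, a ratio of 8.82 with an exact counting interval of 3.76 to 24.9 (edgeR adjusted p = 0.00323). In TC71 it had 0, 12 and 0 counts in vehicle and 66, 50 and 99 with doxycycline (1.60, 1.19 and 2.25 CPM; edgeR adjusted p = 8.86e-05). The size of the TC71 change rests on 1 library: the fitted log2 fold change was 4.55 ± 0.78 (SE) with all libraries and 3.94 without TC71 vehicle replicate 1, and without replicate 2 the vehicle group is at 0, so that the level was at least 14.4-fold higher.

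TNF, the founding cytokine of the family, rose in EW8, from 1.40, 2.00 and 0.898 CPM to 6.30, 7.51 and 4.43 CPM (log2 fold change 2.09 ± 0.43 SE, edgeR adjusted p = 0.000545). In TC71 its counts were 4, 22 and 4 in vehicle and 14, 2 and 6 with doxycycline, and the groups overlapped. The difference between the lines gave a log2 difference of -2.12 ± 0.80 (SE) and an edgeR adjusted p of 0.0744, and without TC71 vehicle replicate 1 it was -2.58 with an adjusted p of 0.0104. TNFSF9, the ligand of TNFRSF9, was at 7.89, 6.62 and 8.73 CPM in EW8 vehicle and at 8.41, 8.30 and 7.99 CPM with doxycycline, values that overlap. In TC71 it rose from 2.79, 3.73 and 5.04 CPM to 7.90, 6.98 and 8.78 CPM (log2 fold change 1.03 ± 0.19 SE, edgeR adjusted p = 0.000157), just past the limit on the fold change. Its log2 fold change was 0.77 without TC71 vehicle replicate 1, and 0.95 to 0.98 without EW8 vehicle replicate 3, any EW8 doxycycline library or TC71 doxycycline replicate 3, each time below that limit. It was also below it with median-ratio size factors, library size alone, DESeq2 or at least 10 counts in every library, so that over all alternatives that lost the call the value was 0.77 to 0.999. The difference of the responses was under the limit (0.95 ± 0.26 SE, edgeR adjusted p = 0.0145) and was 1.03 to 1.09, past it, without EW8 vehicle replicate 2, TC71 vehicle replicate 3 or TC71 doxycycline replicate 2.

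TRAIL (TNFSF10) was measured at 1.76, 2.40 and 2.59 CPM in EW8 vehicle and at 2.25, 2.53 and 1.69 CPM with doxycycline, and these groups overlapped. In TC71 it was close to absent, with 1, 0 and 0 counts in vehicle and 2, 10 and 2 counts with doxycycline. That change was called (edgeR adjusted p = 0.00645, ratio 18.3 with a counting interval of 1.17 to 412). The call was lost when TC71 doxycycline replicate 2, the library with 10 counts, was left out, and also with only the line's own groups in the fit. TNFSF12, the ligand of TNFRSF12A, was at 0.969, 1.39 and 1.71 CPM in EW8 vehicle and at 0.912, 1.99 and 1.85 CPM with doxycycline. In TC71 it had at most 12 counts in any library.

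The ligands that fell were TNFSF13B and TNFSF13, which act on B cells. TNFSF13B, known as BAFF, a survival factor for B cells, was at 3.79, 3.92 and 3.73 CPM in EW8 vehicle and 1.40, 1.03 and 1.51 CPM with doxycycline, and in TC71 at 2.18, 2.17 and 2.17 CPM and then 0.436, 0.717 and 0.773 CPM. All doxycycline libraries were below all vehicle libraries of the same line, and the log2 fold change fell by 1.54 ± 0.25 (SE, edgeR adjusted p = 6.24e-05) in EW8 and by 1.75 ± 0.27 (edgeR adjusted p = 3.07e-05) in TC71. TNFSF13, a related ligand, was called lower in TC71, from 25, 18 and 17 counts to 3, 0 and 4 counts, a ratio of vehicle to doxycycline of 6.56 with a counting interval of 2.02 to 22.4 (edgeR adjusted p = 0.000958). In EW8 it was at 1.60, 1.72 and 1.69 CPM and then 1.88, 1.84 and 2.67 CPM, which did not pass the test (edgeR adjusted p = 0.490). Of its exon bases, 55.5% are shared with the read-through gene TNFSF12-TNFSF13, and reads on more than 1 gene were not counted. TNFSF4 passed the filter with less than 1 CPM in all group means and was not called.

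Among the death receptors, TNFRSF10B, a receptor for TRAIL, rose in both lines from an already high level. It was at 118, 119 and 119 CPM in EW8 vehicle and 413, 412 and 398 CPM with doxycycline, and in TC71 at 122, 131 and 131 CPM and then 286, 277 and 287 CPM. These groups lie far apart relative to the spread within them, 3.44-fold in EW8 (log2 fold change 1.78 ± 0.05 SE, edgeR adjusted p = 2.50e-15) and 2.22-fold in TC71 (1.15 ± 0.05, edgeR adjusted p = 8.14e-13). The response was larger in EW8 by 0.63 on the log2 scale (log2 difference, TC71 minus EW8, -0.63 ± 0.07 SE, edgeR adjusted p = 2.23e-06), under the limit of 1 for a call. On the RPKM scale, TNFRSF10B was at 23.0 RPKM in EW8 vehicle and 79.0 with doxycycline, and at 24.8 and 54.9 RPKM in TC71.

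TNFRSF10A, the other death receptor for TRAIL, differed mainly between the lines. Its values were 0.225, 0.479 and 0.539 CPM in EW8 vehicle, 0.626, 0.988 and 0.639 CPM in EW8 doxycycline, 33.7, 33.9 and 41.5 CPM in TC71 vehicle and 59.3, 62.2 and 62.3 CPM in TC71 doxycycline. Under vehicle it was 85.4-fold higher in TC71 (log2 fold change 6.42 ± 0.19 SE, edgeR adjusted p = 3.61e-15). The doxycycline libraries were above the vehicle libraries in both lines, by 0.83 ± 0.27 on the log2 scale in EW8 (edgeR adjusted p = 0.0196) and 0.75 ± 0.12 in TC71 (edgeR adjusted p = 5.02e-05), which is under the limit of 1. Both genes lie in 1 group of neighbours on chromosome 8 with the decoys TNFRSF10C and TNFRSF10D, within 205 kb (GRCh38, chr8:23020133-23225126).

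The decoys of that group also differed between the lines. TNFRSF10D, which has a truncated death domain, was at 4.42, 4.84 and 5.21 CPM in EW8 vehicle and 3.52, 2.07 and 4.15 CPM with doxycycline, and at 52.0, 39.2 and 32.5 CPM and then 64.2, 62.7 and 66.2 CPM in TC71. Neither change passed the limit of 1 (log2 fold change -0.58 ± 0.20 SE with an edgeR adjusted p of 0.0266 in EW8, and 0.64 ± 0.16 with 0.00290 in TC71). The difference between them was called, at 1.22 ± 0.26 (SE, edgeR adjusted p = 0.00230), and was 0.88 without EW8 doxycycline replicate 2 and 0.99 without TC71 vehicle replicate 3, both under the limit. TNFRSF10C, which is anchored by a lipid and lacks an intracellular domain, was at the floor in all 6 EW8 libraries, so no fold is given there, although the fit called it higher (edgeR adjusted p = 0.0495), a call that was lost without any 1 of 9 libraries. In TC71 it had 38, 63 and 42 counts in vehicle and 36, 30 and 72 counts with doxycycline, which overlap. Of its exon bases, 39.3% are shared with other genes, where reads were not counted. TNFRSF11B, a secreted decoy for TRAIL and for the bone-resorption ligand TNFSF11, had at most 50 counts in any library and was not called with doxycycline in either line. With TC71 vehicle replicate 1 left out it was called higher in TC71 (edgeR adjusted p = 0.0152), from 0 counts in both remaining vehicle libraries to 8, 2 and 2 counts. TNFRSF6B had 0 counts in all libraries, and all of its exon bases are shared with other genes, so its reads could not have been counted.

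**Figure D3:**
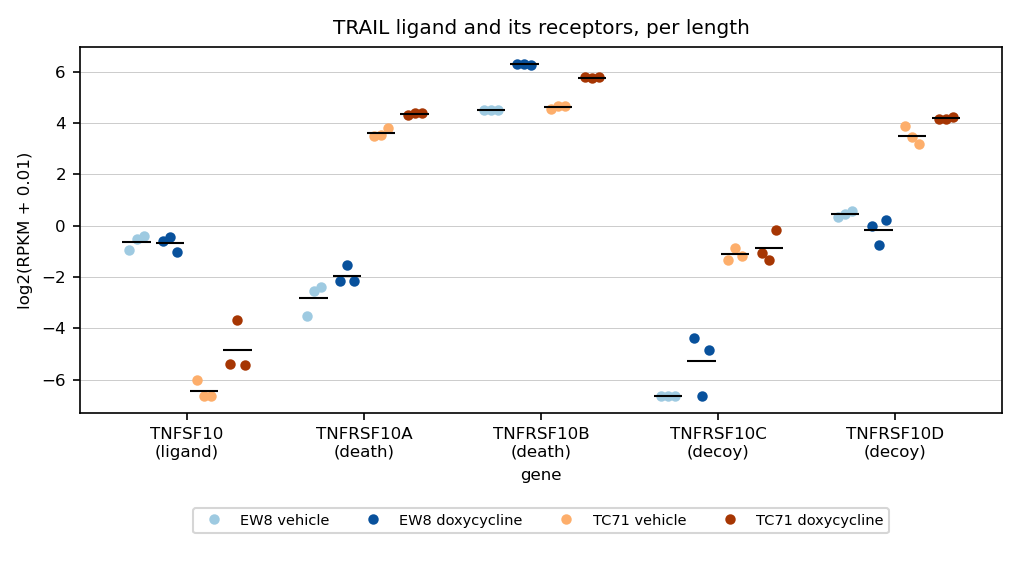
Level per length, as log2 of RPKM plus 0.01, of the ligand TRAIL (TNFSF10) and its receptors in the 4 groups. Points are libraries and lines are means over 3. TNFRSF10B is high in all groups and higher with doxycycline, while TNFRSF10A, TNFRSF10C and TNFRSF10D are higher in TC71 than in EW8 and TNFSF10 is lower.

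TNFRSF25, the death receptor for TNFSF15, had the largest fitted difference in response between the lines among the members called for it. It was at 6.83, 8.32 and 6.79 CPM in EW8 vehicle and 12.1, 13.3 and 15.2 CPM with doxycycline, a log2 fold change of 0.89 ± 0.25 (SE, edgeR adjusted p = 0.00650) that is under the limit of 1. In TC71 it had 9, 0 and 0 counts in vehicle and 221, 198 and 169 counts with doxycycline (5.35, 4.73 and 3.84 CPM, edgeR adjusted p = 1.24e-09). The fitted difference of the responses was 5.46 ± 0.55 on the log2 scale (SE, edgeR adjusted p = 9.71e-07). It was 4.81 and 4.85 without TC71 vehicle replicate 2 or 3. Its size depends on TC71 vehicle replicate 1, the library with 9 counts: without it the vehicle group is at 0, and the TC71 level with doxycycline was at least 39.9-fold higher.

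**Figure D4:**
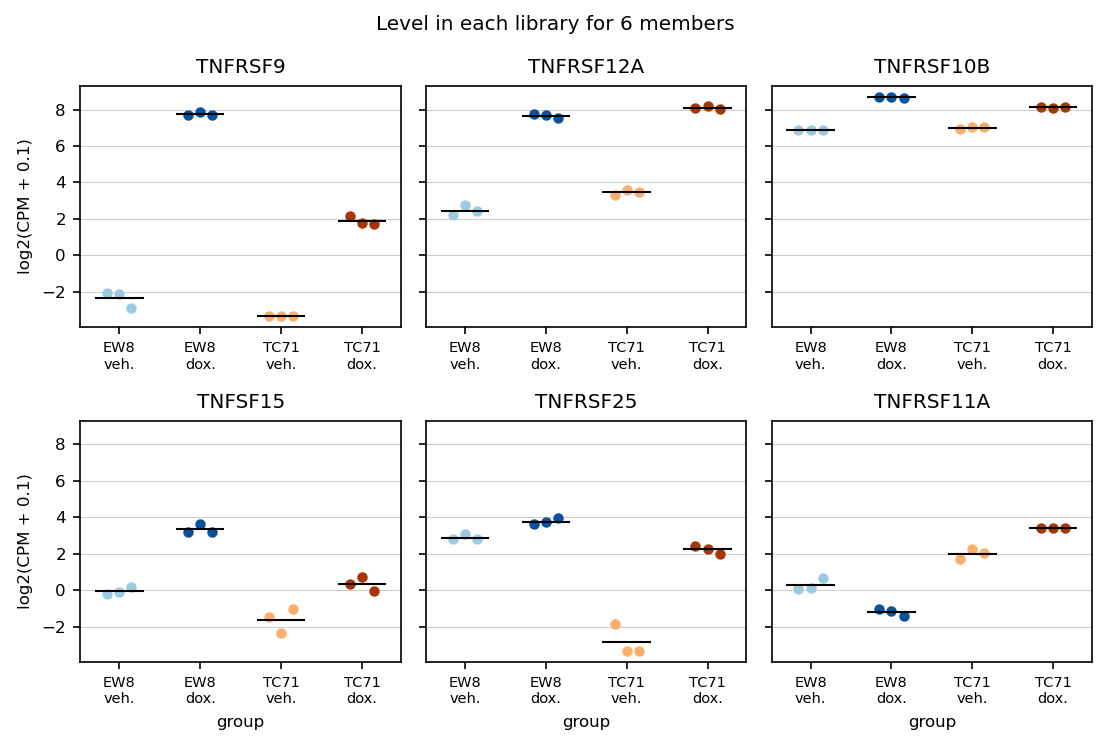
Level of 6 members in each of the 12 libraries, as log2 of CPM plus 0.1, with the mean of each group as a line (veh., vehicle; dox., doxycycline). TNFRSF9, TNFRSF12A, TNFRSF10B and TNFSF15 are higher in the doxycycline libraries of both lines, TNFRSF25 is near the bottom of the scale only in TC71 vehicle, and TNFRSF11A is lower with doxycycline in EW8 and higher in TC71.

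The remaining death receptors were not called with doxycycline in either line. TNFRSF1A, the widely expressed receptor for TNF, was at 86.5, 93.5 and 88.1 CPM in EW8 vehicle and 169, 170 and 168 CPM with doxycycline, a log2 fold change of 0.92 ± 0.08 (SE, edgeR adjusted p = 1.39e-08), and in TC71 the change was 0.53 ± 0.08 (edgeR adjusted p = 1.56e-05). FAS, the receptor for FASLG, was at 62.7, 57.0 and 59.0 CPM in EW8 vehicle and 36.0, 37.1 and 34.2 CPM with doxycycline, a log2 fold change of -0.74 ± 0.15 (SE, edgeR adjusted p = 0.000521). In TC71 the FAS groups overlapped, at 6.20, 11.1 and 10.6 CPM and then 10.9, 8.27 and 11.5 CPM. NGFR, a low-affinity neurotrophin receptor, had log2 fold changes of -0.56 ± 0.08 in EW8 (SE, edgeR adjusted p = 1.73e-05) and -0.81 ± 0.09 in TC71 (edgeR adjusted p = 3.06e-07). It was the member with the highest level per length in EW8 vehicle, at a mean of 28.4 RPKM. That level leaves out reads on the 27.1% of its exon bases that are shared with other genes. TNFRSF21 stayed between 4.21 and 8.48 CPM in all libraries and was not called. EDAR, the ectodysplasin receptor, was at the floor in all libraries.

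Among the other receptors, TNFRSF9, a costimulatory receptor best known from activated T cells, had the largest rise of any member in EW8. There it had 6, 6 and 2 counts in vehicle and 11784, 11820 and 9262 counts with doxycycline, which is 211, 233 and 211 CPM. The ratio was 2279 with an exact counting interval of 1106 to 5670 (edgeR adjusted p = 9.59e-17). In TC71 it had 0 counts in all vehicle libraries and 180, 138 and 140 counts with doxycycline (4.36, 3.30 and 3.18 CPM), at least 31.0-fold higher (edgeR adjusted p = 1.03e-11). TNFRSF9 thus went from the floor to a mean of 34.5 RPKM in EW8 and to 0.571 RPKM in TC71. The gene lies at chr1:7915894-7943165 (GRCh38, minus strand), and its promoter stretch is the first of those printed above.

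TNFRSF12A, the receptor of TNFSF12, which is known to be induced by growth factors, was at 4.49, 6.58 and 5.30 CPM in EW8 vehicle and 214, 211 and 184 CPM with doxycycline. In TC71 it was at 9.94, 11.9 and 10.8 CPM and then 272, 295 and 263 CPM. The rise was 37.2-fold in EW8 (log2 fold change 5.22 ± 0.11 SE, edgeR adjusted p = 9.59e-17) and 25.4-fold in TC71 (4.67 ± 0.11, edgeR adjusted p = 1.22e-16). With doxycycline it had the highest level per length of all members in both lines, 110 RPKM (SD 8.95, n = 3) in EW8 and 150 RPKM (SD 8.87, n = 3) in TC71, and every library lay above the highest TNFRSF10B library of the same group. TNFRSF19, a receptor expressed in embryonic and skin progenitor cells, was at 3.29, 3.96 and 3.64 CPM in EW8 vehicle and 28.7, 30.6 and 27.2 CPM with doxycycline, and at 3.61, 4.12 and 3.8 CPM and then 15.4, 14.9 and 13.3 CPM in TC71. It rose 7.93-fold in EW8 and 3.78-fold in TC71, and the response was smaller in TC71 (log2 difference -1.07 ± 0.17 SE, edgeR adjusted p = 0.000128).

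TNFRSF8, known as CD30 and a marker of Hodgkin lymphoma, rose from 1.13, 0.915 and 0.467 CPM to 2.36, 1.5 and 1.78 CPM in EW8 and from 0.0382, 0.193 and 0.0776 CPM to 7.17, 8.41 and 7.14 CPM in TC71. The log2 fold change was 1.19 ± 0.33 (SE, edgeR adjusted p = 0.00713) in EW8, 0.92 without EW8 vehicle replicate 3 and so under the limit, and 6.11 ± 0.42 (edgeR adjusted p = 8.64e-10) in TC71. The responses differed by 4.92 ± 0.55 (SE, edgeR adjusted p = 2.96e-06). Without TC71 vehicle replicate 2 the TC71 value was 6.97 and the difference 5.78. TNFRSF1B, a receptor for TNF that signals to NF-kB, is the gene next to TNFRSF8 among the members on chromosome 1 and was likewise called for the difference of the responses. It was at 14.2, 12.5 and 15.5 CPM in EW8 vehicle and 27.5, 25.2 and 22.9 CPM with doxycycline (log2 fold change 0.84 ± 0.15 SE, edgeR adjusted p = 0.000211, under the limit). In TC71 it had 0, 6 and 2 counts and then 74, 80 and 70 counts, a ratio of 36.6 with a counting interval of 13.9 to 137 (edgeR adjusted p = 1.08e-09), and the responses differed by 4.29 ± 0.42 (SE, edgeR adjusted p = 7.36e-07), 3.64 without TC71 vehicle replicate 1 and 5.5 without replicate 2.

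TNFRSF11A, the receptor for the osteoclast factor TNFSF11, was the member that moved in opposite directions. It fell in EW8, from 0.947, 1.00 and 1.51 CPM to 0.394, 0.356 and 0.274 CPM (log2 fold change -1.75 ± 0.27 SE, edgeR adjusted p = 3.20e-05). It rose in TC71, from 3.23, 4.60 and 4.04 CPM to 10.6, 10.4 and 10.6 CPM (1.41 ± 0.20, edgeR adjusted p = 9.81e-06). The difference was 3.15 ± 0.33 (SE, edgeR adjusted p = 1.61e-06), and its ligand TNFSF11 was at the floor in all libraries.

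RELT, an orphan receptor, had similar values in both lines but was called in 1 of them. It was at 5.91, 7.30 and 7.47 CPM and then 15.2, 13.8 and 13 CPM in EW8 (log2 fold change 1.02 ± 0.15 SE, edgeR adjusted p = 1.99e-05), and at 6.62, 7.98 and 5.39 CPM and then 14, 13.4 and 11.4 CPM in TC71 (0.95 ± 0.15, edgeR adjusted p = 3.87e-05). The difference of -0.07 ± 0.21 (SE) did not pass the test (edgeR adjusted p = 0.889), and without EW8 vehicle replicate 1 the EW8 value was 0.93. TNFRSF13C, the receptor of TNFSF13B on B cells, fell with its ligand. It was at 19.5, 17.8 and 18.9 CPM and then 9.39, 8.22 and 9.86 CPM in EW8 (log2 fold change -1.03 ± 0.17 SE, edgeR adjusted p = 7.01e-05), and at 2.23, 3.01 and 3.03 CPM and then 0.630, 1.31 and 1.18 CPM in TC71 (-1.40 ± 0.21, edgeR adjusted p = 2.77e-05). The EW8 value was between -0.91 and -0.99 when EW8 vehicle replicate 3, EW8 doxycycline replicate 2 or TC71 vehicle replicate 1 or 3 was left out, each time under the limit.

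LTBR, the lymphotoxin beta receptor, was at 97.1, 104 and 99.6 CPM and then 135, 135 and 122 CPM in EW8 and had log2 fold changes of 0.38 ± 0.07 in EW8 (SE, edgeR adjusted p = 0.000345) and 0.61 ± 0.08 in TC71 (edgeR adjusted p = 3.29e-06), both under the limit. CD40, a costimulatory receptor of antigen-presenting cells, was at 49.8, 53.0 and 48.8 CPM in EW8 vehicle and 39.7, 40.4 and 41.3 CPM with doxycycline, and did not pass the test (edgeR adjusted p = 0.180). In TC71 it was at 0.305, 0.386 and 1.36 CPM and then 0.485, 0.334 and 0.364 CPM. Without TC71 vehicle replicate 1 its TC71 log2 fold change was -1.16 with an edgeR adjusted p of 0.00894, which is past the limit, as was the value of -1.07 without replicate 2. TNFRSF14, the receptor shared by TNFSF14 and LTA, was at 1.04, 1.92 and 1.71 CPM in EW8 vehicle and 0.769, 1.17 and 0.616 CPM with doxycycline, which overlap (log2 fold change -0.87 ± 0.52 SE, edgeR adjusted p = 0.198). The TC71 counts were 12, 11 and 9 in vehicle and 8, 2 and 0 with doxycycline (-1.26 ± 0.73, edgeR adjusted p = 0.179). Without TC71 doxycycline replicate 1, the library with 8 counts, it was called lower in TC71, at a fitted value of -2.92. The members that did not pass the filter, other than those described above, were FASLG, LTA, LTB, TNFSF8, TNFSF18, TNFRSF4, TNFRSF13B, TNFRSF17 and TNFRSF18, none of which exceeded 28 counts in any library. LTA had that value in EW8 doxycycline replicate 3.

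The lines differed in the family before induction. Under vehicle, 4 members were higher in TC71 than in EW8 and 18 were lower, against 11.6% and 18.9% of all genes. The higher members were TNFRSF10A, TNFRSF10C, TNFRSF10D and TNFRSF11A. Of the 10 tested ligands 7 were lower in TC71 (CD70, TNF, TNFSF10, TNFSF12, TNFSF13, TNFSF15 and TNFSF9), and of the 11 other receptors 7 were lower (CD40, LTBR, TNFRSF13C, TNFRSF14, TNFRSF1B, TNFRSF8 and TNFRSF9). CD40 was 75.4-fold lower in TC71 (edgeR adjusted p = 5.22e-13; log2 fold change -6.24, and -7.14 without TC71 vehicle replicate 3) and FAS was 6.4-fold lower (edgeR adjusted p = 6.71e-11). TNFRSF1B was lower by a ratio of 294, with a counting interval of 115 to 1081 (edgeR adjusted p = 6.01e-14). Its fitted log2 fold change of -8.12 was -7.49 without TC71 vehicle replicate 1 and -9.33 without replicate 2. TNFRSF14 was lower too (log2 fold change -2.99 ± 0.58 SE, edgeR adjusted p = 0.000203). TNFRSF9 was called lower with both groups at the floor, so no fold is given. The TNFSF9 call (log2 fold change -1.01 ± 0.19 SE, edgeR adjusted p = 0.000116) was lost when any EW8 doxycycline library, EW8 vehicle replicate 1 or 3, or TC71 vehicle replicate 1 or 2 was left out, and also with median-ratio size factors, DESeq2 or at least 10 counts in every library. In these alternatives the value was -0.997 to -0.715. Leukocyte and endothelial markers were also lower in TC71 under vehicle, where the 5 endothelial markers summed to 0.757 to 1.41 CPM against 21.7 to 22.4 CPM in EW8, and their part in these differences was not tested. They moved with doxycycline as well: ITGAM and CSF1R of the leukocyte list and PECAM1 and VWF of the endothelial list rose in both lines and CDH5 rose in TC71, and the endothelial list summed to 43.2 to 51.6 CPM in EW8 doxycycline and 4.28 to 5.96 CPM in TC71 doxycycline.

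With doxycycline, the responses of 8 members were called different between the lines, with the limit of 1 on the log2 difference. The response was larger or more positive in TC71 for TNFSF10, TNFRSF10D, TNFRSF25, TNFRSF1B, TNFRSF8 and TNFRSF11A (6 members, against 4.18% of all genes) and lower in TC71 for TNFSF13 and TNFRSF19 (2 members, against 2.87% of all genes). TNFRSF25, TNFRSF1B and TNFRSF8 shared a pattern of levels, with at most 12 counts per library in TC71 vehicle and a clear rise there, against a higher starting level and a smaller change in EW8. The counts were 169 to 221 for TNFRSF25, 70 to 80 for TNFRSF1B and 296 to 352 for TNFRSF8 in the TC71 doxycycline libraries. FOS itself rose more in TC71 (log2 difference 2.21 ± 0.09 SE, edgeR adjusted p = 6.41e-12), as did JUN (0.73 ± 0.15, edgeR adjusted p = 0.00217), under the limit of 1. FOS had a lower mean in TC71 vehicle than in EW8 vehicle, 11.7 against 36.7 CPM. With doxycycline its means were 1579 CPM in TC71 and 1078 CPM in EW8. Whether these differences bear on the responses of the members was not tested.

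A ligand and its receptor were called higher together in few pairs, but many pairs held a member that was not tested. Such pairs, among them CD70 with CD27 and TNFSF8 with TNFRSF8, could not be called together. For 27 known pairs of members, both partners rose in 0 pairs in EW8 and in 3 pairs in TC71: TNFSF10 with TNFRSF10B, TNFSF15 with TNFRSF25, and TNFSF9 with TNFRSF9. The last of these rests on the TNFSF9 call just past the limit. The first rests on the TNFSF10 call, made on a few counts per library and lost in some alternatives. Both partners were at 1 CPM or more in 6 pairs in EW8 vehicle and 8 in EW8 doxycycline, and in 1 and 3 pairs in TC71. TNFSF9 and TNFRSF9 were not both at that level in either vehicle group and were both above it in each doxycycline group, as were TNFSF15 and TNFRSF25. TNFSF13B and TNFRSF13C, by contrast, both fell in both lines and remained above 1 CPM together in EW8. The ligand of TNFRSF12A, TNFSF12, shares 33.2% of its exon bases with other genes, where reads were not counted, so its level may be understated. It was at 0.844 RPKM in EW8 doxycycline and 0.0601 RPKM in TC71 doxycycline. Per length, TRAIL was at 0.621 and 0.0319 RPKM in the same groups, against 79.0 and 54.9 RPKM for TNFRSF10B.

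A total of 24 members fell into 9 groups of neighbours no more than 500 kb apart. CD70, TNFSF14 and TNFSF9, 3 ligands within 140 kb on chromosome 19, were all called higher in TC71, TNFSF9 just past the limit, and TNFSF9 was not called in EW8. In the group on chromosome 8, TNFRSF10B rose in both lines while TNFRSF10A and TNFRSF10D did not pass the limit, and TNF rose in EW8 while its neighbours LTA and LTB were not tested.

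Genes of the pathway outside the family were described from 8 lists. Of 52 of these genes that were tested, 16 rose and 1 fell in EW8, and 8 rose and 1 fell in TC71. The shares over all genes were 11.4% and 3.38% in EW8 and 12.3% and 3.67% in TC71, and the TC71 counts are near them. The counts of single lists rest on few genes. Of the 10 adaptor genes, 3 rose in EW8 and 1 in TC71. TRAF1, an adaptor that is also a target of NF-kB, rose from 4.20 to 96.1 CPM in EW8 and from 1.17 to 11.4 CPM in TC71, with a smaller response in TC71 (log2 difference -1.23 ± 0.22 SE, edgeR adjusted p = 0.000564). BIRC3, which encodes an inhibitor of apoptosis that binds TRAF proteins, went from 0.206 to 14.7 CPM in EW8 and from 1.36 to 1.31 CPM in TC71 (difference -6.20 ± 0.41, edgeR adjusted p = 4.12e-09). EDARADD, the adaptor of EDAR, was at 2.05 and 0.977 CPM in EW8 and 1.05 and 1.90 CPM in TC71 (difference 1.93 ± 0.39, edgeR adjusted p = 0.00143).

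Of the 10 genes for negative feedback, 5 rose in EW8 and 2 in TC71. TNFAIP3, which edits ubiquitin chains and restrains NF-kB, went from 4.27 to 44.7 CPM in EW8 and from 12.5 to 14.9 CPM in TC71. TNIP1, which binds it, rose from 58.6 to 328 and from 48.1 to 101 CPM, and the deubiquitinase CYLD from 7.01 to 47.4 and from 13.6 to 37.9 CPM. All of these 3 responses were smaller in TC71, by log2 differences of -3.13 ± 0.17, -1.41 ± 0.10 and -1.28 ± 0.13 (SE, edgeR adjusted p = 4.43e-10, 1.98e-08 and 7.32e-07). Of the 8 genes of the death domain complex, 3 rose in EW8 and 1 in TC71, and FADD rose in both (log2 fold change 1.07 ± 0.17 and 1.05 ± 0.17 SE). Of the 9 kinases that lead to NF-kB, MAP3K14, the kinase of the non-canonical branch, rose in both lines (1.05 ± 0.18 and 1.13 ± 0.18). None of the 4 tested executioner and necroptosis genes was called in either line, and RIPK3 was at 0 counts in all libraries.

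Of the 5 genes for shedding, RHBDF1, a regulator of the protease ADAM17, rose in both lines (log2 fold change 1.47 ± 0.13 and 2.09 ± 0.13 SE). Among the partners outside the family, SORT1, a co-receptor of NGFR, was at 62.7 and 46.9 CPM in EW8 vehicle and doxycycline and at 79.9 and 153 CPM in TC71 (log2 difference 1.36 ± 0.10 SE, edgeR adjusted p = 2.35e-08). The 2 tested ligand and receptor genes of the superfamily whose symbols lie outside the rule, EDA and EDA2R, were not called in either line.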

How the data were processed

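Polyadenylated RNA of 12 libraries was sequenced as read pairs from a stranded kit. The authors aligned the reads with STAR to GRCh38 and assigned them to GENCODE release 29 exons with featureCounts 2.0.1, and the deposited values are raw counts of reads on each gene. The command line in the table sets no option for pairs, strand, multiple mapping or overlap, so each mate counted as a read, reads on more than 1 gene were left out, and a gene cannot be told from an overlapping antisense gene.

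The edgeR function filterByExpr kept 21013 genes, and libraries were scaled by TMM. CPM used this scaling, and RPKM divided CPM by the exon length in the deposited table. A quasi-likelihood model (edgeR 4.0.16, R 4.3.3) was fitted to all 12 libraries as 4 groups. It gave the response to doxycycline of each line, the TC71 response minus the EW8 response, and the contrast of the vehicle groups. Calls needed an adjusted p below 0.05 and a log2 fold change beyond 1 in either direction. The procedure was tested on simulated data. For a group at 0, a fold is a bound against 6 counts per library, and for a group at or under 6 counts the ratio has an exact interval on read pairs.

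The members and gene lists were chosen with earlier results of these data known. Members called in at least 1 comparison or with at least 1 CPM in a group mean (30 genes) were named with values. Pathway genes were named where called in both lines or for the difference, at most 4 per list, and further pathway genes in clauses on counts. Alternatives were other scalings (median-ratio size factors, library size alone), no filter, at least 10 counts in every library, no fold limit, DESeq2 1.42.0, only a line's own groups, a replicate block, and leaving out each library. Promoter sequences are from RefSeq (GRCh38.p14). Results for some genes of the pathway lists are not reported here.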

Additional observations from a re-analysis of the deposited data

Results flagged for a closer look

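For 8 members the response to doxycycline was called different between TC71 and EW8 by a test of the difference itself (edgeR interaction term). A call needed an adjusted p below 0.05 and a log2 difference beyond 1. Of these members, 6 had a more positive response in TC71 (4.18% of all genes) and 2 a lower one (2.87%). By the adjusted p alone, 8 members had a more positive and 5 a lower response, against 2572 and 1485 of the 21013 genes tested. The log2 differences, TC71 minus EW8, were 5.46 for TNFRSF25, 4.92 for TNFRSF8, 4.29 for TNFRSF1B, 3.78 for TNFSF10, 3.15 for TNFRSF11A, 1.22 for TNFRSF10D, -1.07 for TNFRSF19 and -3.02 for TNFSF13. Without TC71 vehicle replicate 1 the difference was 3.64 for TNFRSF1B, and TNFRSF25 and TNFSF10 were at 0 counts in the remaining TC71 vehicle libraries, so that their fitted difference is no bound. Without TC71 vehicle replicate 2 it was 5.5 for TNFRSF1B and 5.78 for TNFRSF8, and without TC71 doxycycline replicate 2 it was 2.59 for TNFSF10, which was then no longer called. The TNFSF10 call was also lost without TC71 vehicle replicate 2 or 3 (3.27 and 3.29). TNFRSF11A was called in opposite directions in the lines.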

How the results depend on the processing

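No value that was called as reported changed sign under any alternative; some that were not called did, such as FAS in TC71 (0.14, and -0.16 without TC71 vehicle replicate 1). Of the counts of calls, 430 stayed within 1.5 times the reported one and 46 moved. With at least 10 counts required in every library, only 18 members were tested. Of these, 5 were higher in EW8 and 5 in TC71, 2 had a more positive and 1 a lower response in TC71, and 6 were lower in TC71 under vehicle. Of the 14647 genes tested in this way, 1255 were higher in EW8 and 1362 in TC71. A more positive response in TC71 was called for 484 genes and a lower one for 482, and 1874 genes were lower in TC71 under vehicle. By class the members gave 1 ligand, 0 decoys and 3 other receptors higher and 1 other receptor lower in EW8, and 1 ligand, 1 death receptor and 3 other receptors higher and 1 ligand lower in TC71. Without the fold limit, 4 death receptors were higher in EW8 and 5 in TC71, 1 decoy was higher in TC71, 6 members, 2 death receptors and 1 decoy were lower in EW8, 1 death receptor was lower in TC71, and 5 members had a lower response in TC71. That last count was 4 with no filter and 4 with DESeq2 (2 as reported). No decoy (0) was higher in EW8 with library size alone or with only a line's own groups, and 1 other receptor was lower in EW8 with the latter; the cause was not tested.

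Leaving out 1 library at a time gave 9 to 12 members higher in EW8 and 12 to 14 in TC71, with 1 to 3 death receptors and 0 to 1 decoys higher in EW8, 0 to 1 decoys higher in TC71, and 1 to 2 other receptors lower in EW8 and 1 to 2 in TC71. With the replicate number as a block, 10 members were higher in EW8 and 13 in TC71, since the decoy TNFRSF10C was no longer called in EW8 (0 decoys), and no other count of calls moved by over 1.5 times. Libraries with the same number did not visibly deviate together (r from -0.03 to 0.01), which does not show whether they were prepared as pairs. Calls gained by leaving out 1 library, beside those given above, were TNFRSF10A in EW8 (without EW8 vehicle replicate 3 or doxycycline replicate 1, 1.00 to 1.12), TNFRSF25 in EW8 (without doxycycline replicate 1, 1.01), RELT in TC71 (without vehicle replicate 2 or doxycycline replicate 3, 1.04 to 1.11), the difference for FAS (without TC71 vehicle replicate 2 or doxycycline replicate 2, 1.00 to 1.02), and, without TC71 vehicle replicate 2, the difference for TNFSF15 and both the difference and the vehicle contrast for TNFSF14. TNFRSF12A under vehicle (1.00, just under the limit) passed it in 10 alternatives (1.01 to 1.17). Depth limits the responses of TNFSF10 and TNFRSF11B in TC71 and of TNFRSF10C in EW8, which rest on a few counts per library.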
